A study of Mus musculus with 14 samples.

Results

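The collagen genes were read as 1 family across the embryonic mouse stomach. They were taken as every gene of the deposited table whose symbol has the form Col, a type number, the letter a and a chain number, leaving out Col17a1, a collagen of hemidesmosomes. This gave 43 genes of 22798 in the table, of which 11 encode fibrillar collagens, 9 encode collagens of the basement membrane zone and 23 encode other kinds. No measured value entered this choice. Of these, 27 reached 1 FPKM, a fragment count scaled to transcript length and library total, in at least 3 of the 14 libraries and were tested (8 fibrillar, 6 basement membrane and 13 other). FPKM is scaled to transcript length, but its relation to GC content differed between libraries, as described below. Levels of different genes can therefore be set side by side only roughly.

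Collagens are secreted proteins in which 3 chains wind into a triple helix, made of identical chains or of products of different genes. Fibrillar collagens, such as types I, III and V, assemble into the fibres of connective tissue and come mainly from mesenchymal cells. Type IV collagen instead forms the sheet of the basement membrane under an epithelium, to which both the epithelium and the cells beneath it contribute. The remaining collagens decorate fibrils, form beaded filaments or hexagonal networks, or stay in the plasma membrane. In the embryonic stomach the epithelium lies on a thick mesenchyme, and the labels give all the libraries as epithelial cells.

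The libraries came from stomach epithelial cells of mouse embryos at stage E14.5, in 4 groups. The hindstomach, which forms the glandular stomach, gave 3 libraries labelled as controls of a conditional Gata4 knockout (G4 cKO control, also given as wild type) and 5 labelled as its mutants (G4 cKO mutant). The forestomach, lined by a stratified squamous epithelium, gave 3 libraries labelled as controls of a conditional Gata4 knock-in (G4 cKI control) and 3 labelled as its mutants (G4 cKI mutant). Gata4 is a transcription factor with zinc fingers that acts in the foregut. The Cre driver, the alleles behind these labels, the strain and any pooling of embryos are not stated in the labels. Hindstomach and forestomach controls belong to different crosses, so region and cross cannot be told apart. Values are listed below in order of the replicate numbers, which are 2, 3 and 4 for hindstomach controls, 1 to 5 for knockout, 2, 3 and 5 for forestomach controls and 1, 2 and 4 for knock-in.

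The targeted gene went against 1 set of labels. Gata4 stood at 61.5 to 65.7 FPKM in the hindstomach controls, while the 5 labelled knockout had 16.9, 19.4, 13.0, 32.1 and 59.6 FPKM, the last of them near the controls. In the forestomach it was 0.573 to 4.50 FPKM in the controls and 0.319 to 1.27 FPKM where labelled knock-in, which is not higher. Absolute depth was unknown, and relative depth ran from 48.4% of the deepest library upwards. Libraries also differed in how FPKM related to the GC content of transcripts, written here as a GC slope, in log2(FPKM + 1) per 10% GC. Each gene's mean over the 14 libraries was subtracted first, so the slope and its sign are relative to the average of the libraries. The slope was 0.56 to 0.61 in the hindstomach controls, -0.57 to 0.49 in those labelled knockout and -0.84 to -0.09 in those labelled knock-in. Among the forestomach controls it was 0.82, 0.62 and -0.61, so control 5 stood with the libraries labelled knock-in, and knockout 5, at 0.49, stood with the hindstomach controls. Tested collagens were GC-rich, with a median of 55.7% against 49.3% over all genes tested, so each result below was also refitted with the slope as a covariate.

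The fibrillar collagens made up most of the collagen signal in every library, 61.1% to 83.8% of summed collagen FPKM. Their sum was 83.0 ± 37.9 FPKM (SD, n = 3) in the hindstomach controls, 248 ± 112 (SD, n = 5) in the libraries labelled knockout, 527 ± 152 (SD, n = 3) in the forestomach controls and 223 ± 96.8 (SD, n = 3) in those labelled knock-in. The sum was higher in every library labelled knockout than in any hindstomach control (141 to 405 against 50.2 to 124 FPKM), and every forestomach control lay above all libraries labelled knock-in (370.0 to 674 against 131 to 324 FPKM). In libraries from many cells, fewer cells of a type and less RNA per cell cannot be told apart. Basement membrane collagens summed to less, 23.6 ± 4.09, 26.8 ± 7.40, 58.1 ± 19.3 and 35.3 ± 10.9 FPKM in the same 4 groups. Those of the hindstomach overlapped (19.4 to 27.5 and 17.4 to 34.9 FPKM), as did those of the forestomach (37.3 to 75.5 and 23.2 to 44.5 FPKM). Over all 43 genes, 8 had a mean of at least 10 FPKM and 20 a mean under 1 FPKM.

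**Figure D1:**
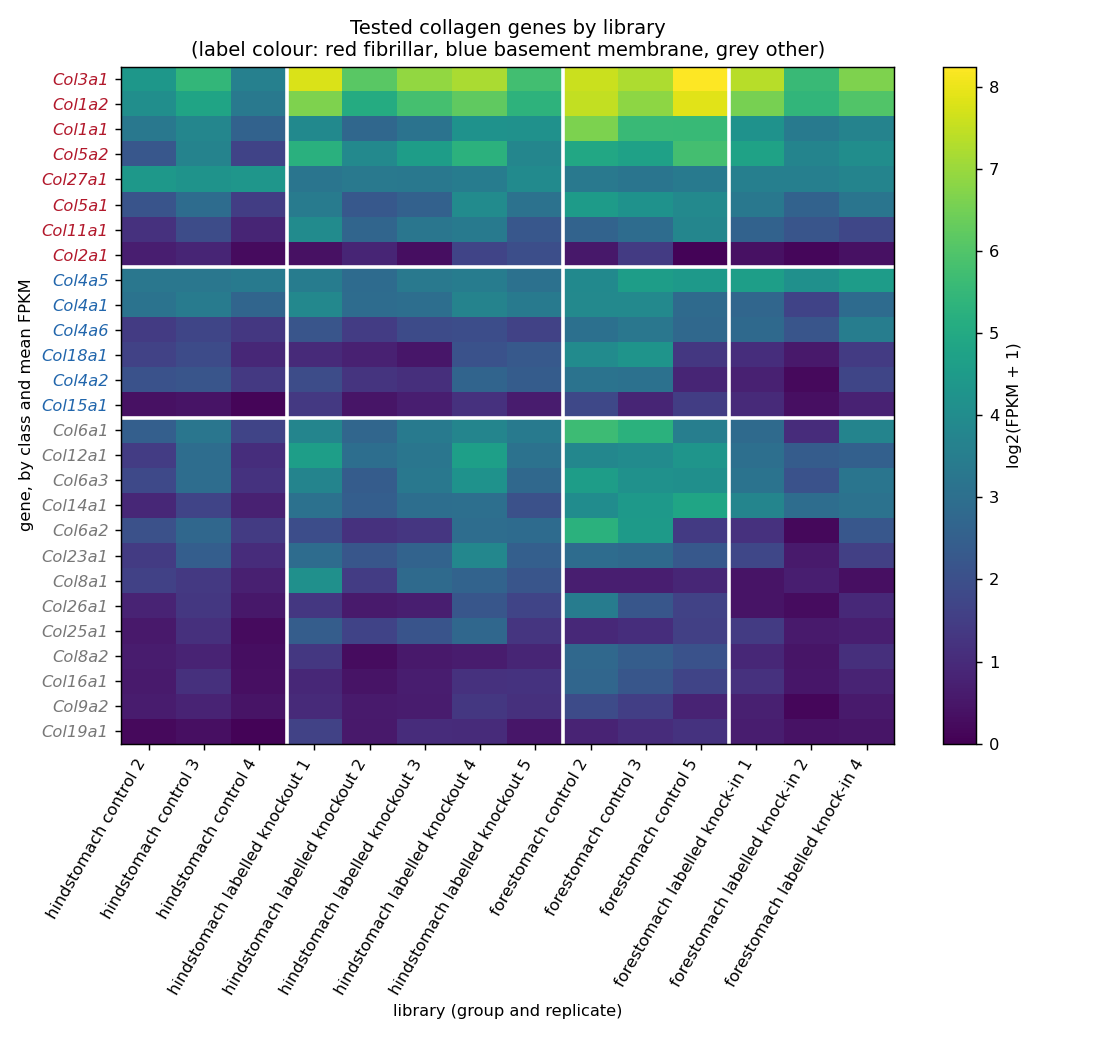
Level of the 27 tested collagens in each of the 14 libraries, as log2(FPKM + 1) on a colour scale, with genes ordered by class and mean and white lines between groups and classes. Among the fibrillar genes at the top, Col3a1, Col1a2, Col1a1, Col5a2 and Col5a1 have their highest mean in the forestomach controls, where Col3a1 reaches 303 FPKM, and their lowest in the hindstomach controls. Col11a1 is also lowest in the hindstomach controls, but its highest mean is in the libraries labelled knockout. Col27a1 and Col2a1 share neither trait.

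Among the fibrillar collagens, Col3a1, whose chain forms type III collagen of soft, distensible tissues, had the highest mean, 117 FPKM over the 14 libraries. Col3a1 stood at 19.5, 43.4 and 11.0 FPKM in the hindstomach controls and 221, 69.6, 119, 147 and 53.4 FPKM in the libraries labelled knockout. Forestomach values of Col3a1 were 191, 149 and 303 FPKM for controls and 162, 47.3 and 99.8 FPKM for those labelled knock-in. The hindstomach groups did not overlap, with controls the lower, while the forestomach groups did. Knockout 5, the library with near-control Gata4, was the lowest of its group.

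The stretch just upstream of Col3a1 is shown beside those of Col11a1 and Col27a1. Col3a1 and Col11a1 rose and Col27a1 fell in the knockout comparison, and their 250 bases before the start hold no annotated exon base. The choice thus used results of these data. Col25a1 also rose and has a window without exon bases, but it is not shown. The windows come from RefSeq promoters on GRCm38.p6, written 5′ to 3′ on the gene's strand. Col3a1 covers chr1:45311288-45311537, Col11a1 covers chr3:114030290-114030539 and Col27a1 covers chr4:63215162-63215411, all on the plus strand. Capitals mark matches to GATAA (1 of the forms read by GATA factors), CCAAT or TATAAA on either strand. Other forms, such as GATAG, were not marked or counted, so a window without GATAA may still hold them.
Col3a1: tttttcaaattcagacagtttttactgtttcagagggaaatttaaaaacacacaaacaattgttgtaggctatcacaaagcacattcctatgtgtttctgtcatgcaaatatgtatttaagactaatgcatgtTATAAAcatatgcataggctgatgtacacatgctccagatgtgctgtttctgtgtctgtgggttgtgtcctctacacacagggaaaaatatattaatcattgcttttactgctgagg
Col11a1: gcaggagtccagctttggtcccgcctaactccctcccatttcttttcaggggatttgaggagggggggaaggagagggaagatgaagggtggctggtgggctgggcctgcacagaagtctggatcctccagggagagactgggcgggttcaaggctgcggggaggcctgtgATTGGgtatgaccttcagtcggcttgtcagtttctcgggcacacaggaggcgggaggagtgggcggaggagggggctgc
Col27a1: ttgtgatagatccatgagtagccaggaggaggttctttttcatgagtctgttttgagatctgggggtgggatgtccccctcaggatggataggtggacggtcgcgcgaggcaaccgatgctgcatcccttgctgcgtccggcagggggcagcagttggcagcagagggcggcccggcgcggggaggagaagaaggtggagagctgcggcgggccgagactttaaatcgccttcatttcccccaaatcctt
Col3a1 holds 1 TATAAA and Col11a1 holds 1 CCAAT, written ATTGG on the strand shown, while Col27a1 holds none of the 3 motifs and none of the windows holds GATAA. Over all 32851 RefSeq windows of this length, 22.6% hold GATAA, 33.8% hold CCAAT and 12.4% hold TATAAA. The table matched 34 of the 43 collagens with 37 windows, of which 5 hold GATAA, 12 CCAAT and 4 TATAAA. These are matches of letters, not binding sites.

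Type I collagen, the main fibre of most connective tissue, is made from Col1a1 and Col1a2 chains, with more Col1a1 than Col1a2 in each molecule. Col1a2 stood at 15.8, 27.3 and 9.20 FPKM in the hindstomach controls and 99.2, 32.6, 55.1, 73.8 and 39.5 FPKM in the libraries labelled knockout. Forestomach values of Col1a2 were 178, 114 and 235 FPKM for controls and 92.3, 42.5 and 63.8 FPKM for those labelled knock-in. Neither pair of groups overlapped, and the forestomach controls were the highest of all. Col1a1 stood at 8.87, 12.8 and 5.07 FPKM in the hindstomach controls, and in the libraries labelled knockout it averaged 12.4 ± 5.36 FPKM (SD, n = 5) with a range of 5.69 to 17.5 FPKM. Forestomach values of Col1a1 were 98.1, 47.4 and 45.7 FPKM for controls and 17.5, 9.49 and 11.9 FPKM for those labelled knock-in. For Col1a1 the hindstomach groups overlapped, unlike those of its partner chain, and the forestomach controls again lay above the libraries labelled knock-in. Transcripts of Col1a2 exceeded those of Col1a1 in every library, with Col1a1 at 0.469 to 0.562 of the Col1a2 level in the hindstomach controls and 0.141 to 0.427 in those labelled knockout. The ratio was 0.551, 0.415 and 0.194 in the forestomach controls and 0.187 to 0.223 in those labelled knock-in. Ratios above 0.4 were found in the libraries with GC slopes of 0.49 or more, which include knockout 5, and ratios under 0.3 in those with lower slopes, which include forestomach control 5. Col1a1 transcripts have 58.9% GC and those of Col1a2 55.7%.

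Type V collagen, from Col5a1 and Col5a2, starts and limits the growth of type I fibrils. Col5a2 stood at 3.75, 12.0 and 2.13 FPKM in the hindstomach controls and 36.3, 13.9, 23.0, 38.7 and 12.6 FPKM in the libraries labelled knockout. Forestomach values of Col5a2 were 30.2, 25.2 and 53.5 FPKM for controls and 26.2, 12.1 and 15.4 FPKM for those labelled knock-in. The hindstomach groups were apart by a narrow margin, since control 3 reached 12.0 and knockout 5 12.6 FPKM. Col5a1 stood at 3.40, 6.53 and 1.85 FPKM in the hindstomach controls and 9.85, 3.87, 4.87, 14.7 and 7.65 FPKM in the libraries labelled knockout. Forestomach values of Col5a1 were 21.9, 17.4 and 13.9 FPKM for controls and 8.92, 5.06 and 8.14 FPKM for those labelled knock-in. Its hindstomach groups overlapped and its forestomach groups did not. Col11a1, a chain of the type XI collagen found within cartilage fibrils and other thin fibrils, stood at 1.26, 2.74 and 0.795 FPKM in the hindstomach controls and 14.7, 5.48, 8.39, 9.28 and 3.77 FPKM in the libraries labelled knockout. Forestomach values of Col11a1 were 5.13, 6.53 and 12.9 FPKM for controls and 4.99, 3.48 and 2.36 FPKM for those labelled knock-in. Both pairs of groups were apart, with the libraries labelled knockout the higher and those labelled knock-in the lower.

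Col27a1, a fibrillar collagen known mainly from cartilage, ran the other way. Col27a1 stood at 19.9, 17.7 and 19.0 FPKM in the hindstomach controls and 8.13, 9.00, 8.89, 10.1 and 14.4 FPKM in the libraries labelled knockout. Forestomach values of Col27a1 were 9.18, 8.23 and 9.38 FPKM for controls and 10.9, 10.8 and 12.3 FPKM for those labelled knock-in. The hindstomach controls were the highest of the 4 groups and overlapped with none, and knockout 5 was the highest of its own group. Its transcripts have 59.4% GC, close to the value for Col1a1. Col2a1, the main cartilage fibril chain, was the least abundant of the tested fibrillar genes at 0.0571 to 2.94 FPKM. It was called in none of the 3 comparisons.

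**Figure D2:**
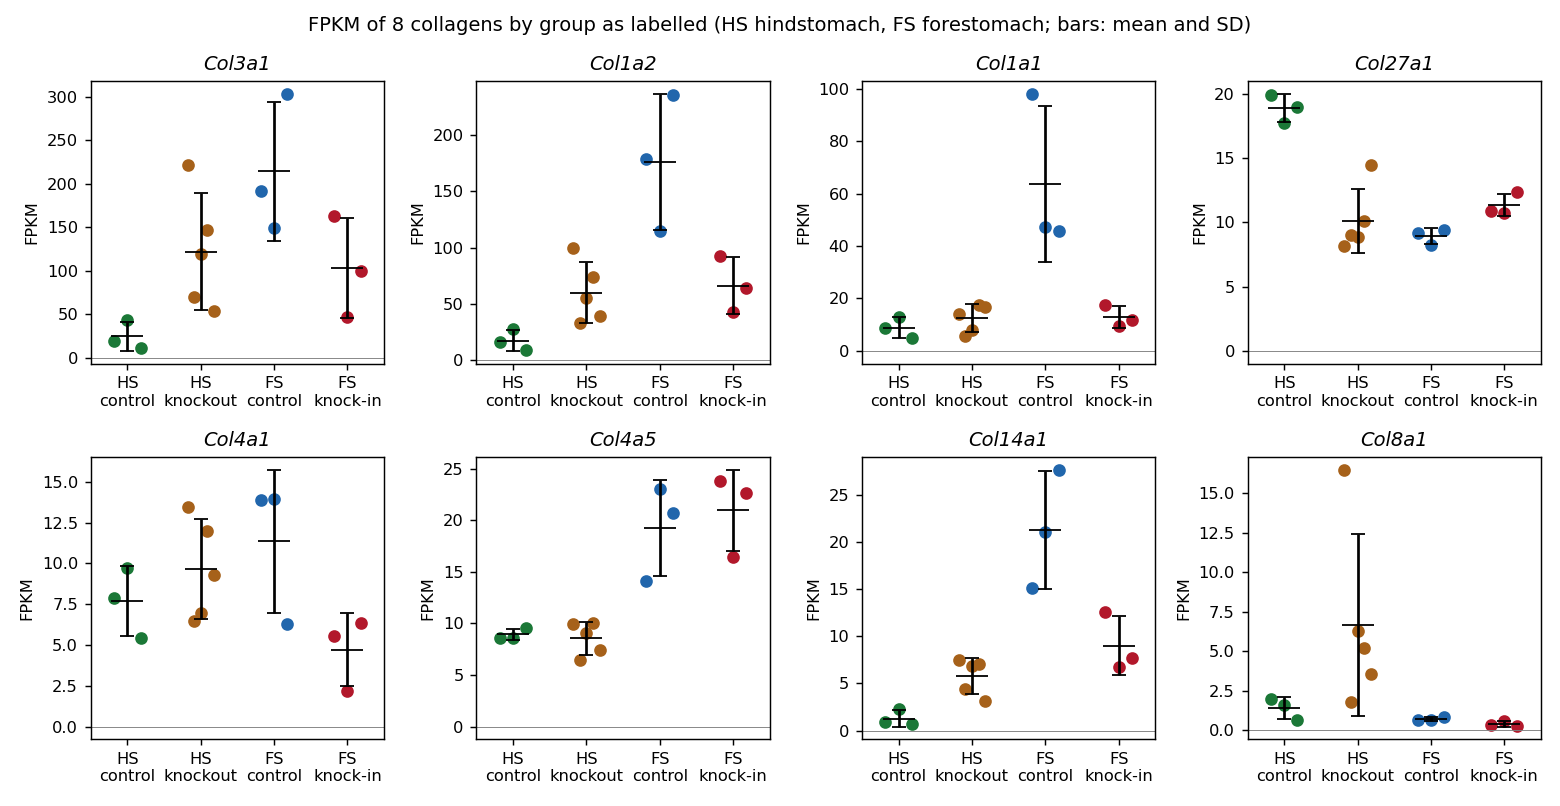
FPKM of 8 collagens by group, 1 panel per gene on its own linear axis from 0, with points for libraries and bars for mean and SD (n = 3, 5, 3 and 3). Col3a1, Col1a2 and Col14a1 are lowest in the hindstomach controls, Col27a1 is highest there, and Col4a5 differs by region in both mutant and control libraries.

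The basement membrane collagens were led by Col4a5, whose chain joins Col4a3 and Col4a4 or Col4a6 in specialised networks. Col4a5 stood at 8.58, 8.62 and 9.59 FPKM in the hindstomach controls, and in the libraries labelled knockout it averaged 8.57 ± 1.60 FPKM (SD, n = 5), with 6.43 FPKM the lowest. Forestomach values of Col4a5 were 14.1, 23.1 and 20.7 FPKM for controls and 23.8, 16.5 and 22.7 FPKM for those labelled knock-in. All 6 forestomach libraries lay above all 8 hindstomach libraries, whatever their label. Col4a6, the neighbour and partner chain of Col4a5, stood at 1.70, 2.28 and 1.53 FPKM in the hindstomach controls and 3.50, 1.75, 2.69, 2.85 and 2.07 FPKM in the libraries labelled knockout. Forestomach values of Col4a6 were 7.21, 8.71 and 5.85 FPKM for controls and 5.99, 3.55 and 10.4 FPKM for those labelled knock-in. Again every forestomach library was above every hindstomach library, the lowest being knock-in 2. Col4a1, a chain of the network present in nearly all basement membranes, stood at 7.89, 9.71 and 5.45 FPKM in the hindstomach controls and 13.5, 6.49, 6.93, 12.0 and 9.30 FPKM in the libraries labelled knockout. Forestomach values of Col4a1 were 13.9, 13.9 and 6.28 FPKM for controls and 5.57, 2.18 and 6.37 FPKM for those labelled knock-in. Both pairs of groups overlapped, and forestomach control 5 was well below the other controls. Its partner Col4a2, named after its values were seen, ranged from 0.164 to 7.77 FPKM, and Col4a1 exceeded it in all 14 libraries. The ratio of Col4a1 to Col4a2 was 2.44 to 3.43 in the hindstomach controls and 2.16 to 6.02 in those labelled knockout. In the forestomach it was 1.79 to 7.95 in the controls, highest in control 5, and 2.76 to 13.2 in those labelled knock-in.

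The multiplexins carry a triple helix interrupted many times and sit at the outer face of basement membranes. Col18a1, the source of the fragment endostatin, stood at 2.08, 2.66 and 0.869 FPKM in the hindstomach controls and 0.981, 0.704, 0.401, 3.20 and 3.98 FPKM in the libraries labelled knockout. Forestomach values of Col18a1 were 14.7, 18.4 and 1.54 FPKM for controls and 1.13, 0.483 and 1.73 FPKM for those labelled knock-in. Forestomach controls 2 and 3 were above all other libraries, and control 5 was not. Col15a1, the related collagen of vessels and muscle, stood at 0.299, 0.363 and 0.0915 FPKM in the hindstomach controls and 1.59, 0.383, 0.628, 1.27 and 0.542 FPKM in the libraries labelled knockout. Forestomach values of Col15a1 were 2.43, 0.806 and 1.84 FPKM for controls and 0.956, 0.270 and 0.732 FPKM for those labelled knock-in. Its hindstomach groups did not overlap, by a margin of 0.363 to 0.383 FPKM. Col7a1, which forms the anchoring fibrils of stratified epithelium, was not tested. It reached 1.05 and 2.78 FPKM in forestomach controls 2 and 3 but 0.0541 FPKM in control 5. Elsewhere Col7a1 did not exceed 0.173 FPKM. Col4a3 and Col4a4, the other type IV pair, peaked at 0.161 and 0.198 FPKM and were not tested.

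Among the other collagens the type VI chains, which build beaded filaments around cells, were the most abundant together with the fibril-associated types XII and XIV. Col6a1 stood at 4.62, 8.44 and 2.26 FPKM in the hindstomach controls and 12.5, 5.64, 9.67, 12.6 and 9.32 FPKM in the libraries labelled knockout. Forestomach values of Col6a1 were 49.6, 37.3 and 10.4 FPKM for controls and 6.26, 1.08 and 12.1 FPKM for those labelled knock-in. Forestomach controls 2 and 3 were above all other libraries. Col6a2 stood at 3.17, 5.73 and 1.72 FPKM in the hindstomach controls and 2.85, 1.24, 1.48, 6.77 and 6.46 FPKM in the libraries labelled knockout. Forestomach values of Col6a2 were 37.5, 21.7 and 1.63 FPKM for controls and 1.24, 0.136 and 3.68 FPKM for those labelled knock-in. Its groups overlapped in each comparison, with forestomach control 5 more than 10-fold below the other forestomach controls. Col6a3, the long chain of the filament, stood at 2.56, 6.64 and 1.30 FPKM in the hindstomach controls and 12.2, 4.33, 8.97, 17.4 and 5.87 FPKM in the libraries labelled knockout. Forestomach values of Col6a3 were 23.1, 17.2 and 16.2 FPKM for controls and 7.81, 3.18 and 8.20 FPKM for those labelled knock-in. The forestomach controls were close to each other and above the libraries labelled knock-in.

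Col12a1, which bridges fibrils in tissues under load, stood at 1.76, 6.65 and 1.11 FPKM in the hindstomach controls and 23.6, 6.89, 8.39, 24.0 and 7.69 FPKM in the libraries labelled knockout. Forestomach values of Col12a1 were 13.2, 14.7 and 18.6 FPKM for controls and 7.12, 4.23 and 4.81 FPKM for those labelled knock-in. Both pairs of groups were apart, in the hindstomach between 6.65 and 6.89 FPKM. Col14a1, a related collagen on the surface of fibrils, stood at 0.902, 2.26 and 0.675 FPKM in the hindstomach controls and 7.53, 4.46, 6.91, 7.06 and 3.13 FPKM in the libraries labelled knockout. Forestomach values of Col14a1 were 15.2, 21.1 and 27.7 FPKM for controls and 12.6, 6.80 and 7.71 FPKM for those labelled knock-in. Its groups lay in order without overlap from hindstomach control to forestomach control, except that the libraries labelled knockout and knock-in overlapped. Col16a1, another fibril-associated collagen, stood at 0.504, 1.21 and 0.257 FPKM in the hindstomach controls and 0.907, 0.357, 0.567, 1.25 and 1.30 FPKM in the libraries labelled knockout. Forestomach values of Col16a1 were 5.56, 3.65 and 2.24 FPKM for controls and 1.25, 0.408 and 0.767 FPKM for those labelled knock-in. The forestomach controls were the highest group and the hindstomach groups overlapped. Col19a1, a fibril-associated collagen that the mouse oesophagus needs for muscle differentiation, stood at 0.158, 0.272 and 0.0623 FPKM in the hindstomach controls and 2.07, 0.478, 1.06, 1.01 and 0.413 FPKM in the libraries labelled knockout. Forestomach values of Col19a1 were 0.783, 1.06 and 1.31 FPKM for controls and 0.565, 0.320 and 0.394 FPKM for those labelled knock-in. Both pairs of groups were apart at these low levels.

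Of the transmembrane collagens, Col23a1 stood at 1.71, 4.57 and 1.07 FPKM in the hindstomach controls and 6.57, 3.60, 5.15, 13.0 and 4.66 FPKM in the libraries labelled knockout. Forestomach values of Col23a1 were 6.59, 6.11 and 3.82 FPKM for controls and 2.35, 0.517 and 1.97 FPKM for those labelled knock-in. The forestomach groups were apart, the hindstomach groups were not. Col25a1, which in the mouse guides motor axons to muscle, stood at 0.475, 1.19 and 0.170 FPKM in the hindstomach controls and 4.43, 2.14, 3.41, 5.75 and 1.43 FPKM in the libraries labelled knockout. Forestomach values of Col25a1 were 0.935, 1.11 and 1.95 FPKM for controls and 1.69, 0.496 and 0.608 FPKM for those labelled knock-in. Its hindstomach groups were apart and its highest values were in the libraries labelled knockout. Col8a2, a chain of the short-chain network collagen type VIII, stood at 0.562, 0.760 and 0.241 FPKM in the hindstomach controls and 1.51, 0.206, 0.470, 0.559 and 0.816 FPKM in the libraries labelled knockout. Forestomach values of Col8a2 were 5.98, 4.35 and 3.26 FPKM for controls and 0.909, 0.392 and 1.16 FPKM for those labelled knock-in. The forestomach controls were above all 11 other libraries. Col26a1, a short collagen, stood at 0.769, 1.55 and 0.443 FPKM in the hindstomach controls and 1.53, 0.527, 0.625, 3.65 and 2.26 FPKM in the libraries labelled knockout. Forestomach values of Col26a1 were 9.92, 3.63 and 2.10 FPKM for controls and 0.347, 0.215 and 0.926 FPKM for those labelled knock-in. Its forestomach groups were apart, with control 2 well above the other controls. Col8a1, the partner of Col8a2, named after its values were seen, had its highest values in the libraries labelled knockout. Col8a1 stood at 1.99, 1.61 and 0.644 FPKM in the hindstomach controls and 16.5, 1.76, 6.25, 5.23 and 3.56 FPKM in the libraries labelled knockout. Forestomach values of Col8a1 were 0.623, 0.611 and 0.836 FPKM for controls and 0.346, 0.600 and 0.261 FPKM for those labelled knock-in. Its hindstomach groups overlapped, and knockout 1 was far above the rest.

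The 16 collagens that were not tested comprised 3 fibrillar, 3 basement membrane and 10 other genes, and none exceeded 2.78 FPKM in any library, a value of Col7a1. The fibrillar ones were Col24a1, at 0.104 to 1.55 FPKM, Col11a2, at 0.0556 to 0.487 FPKM, and Col5a3, at most 0.182 FPKM. The others were Col6a4, Col6a5 and Col6a6, which can take the place of Col6a3, the fibril-associated Col9a1, Col9a3, Col20a1 and Col22a1, the transmembrane Col13a1, the cartilage collagen Col10a1, and Col28a1. Of the 43 collagens 8 were listed at 0 in at least 1 library. No tested gene had reached 1 FPKM in a single group alone. Some still met the minimum of 3 libraries only with the help of a group where they were high. Col8a2 reached 1 FPKM in 3 forestomach controls, 1 library labelled knockout and 1 labelled knock-in. Col19a1 did so in 3 libraries labelled knockout and 2 forestomach controls, and Col8a1 in 5 labelled knockout and 2 hindstomach controls. The same held for Col15a1, Col9a2 and Col2a1, so calls of such genes are not free of this selection. Col9a2, a tested gene outside the naming rule, ranged from 0.0940 to 2.69 FPKM.

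Between the control hindstomach and the control forestomach, collagen transcripts of all 3 classes were lower in the hindstomach. Of the 27 tested collagens 17 were lower in the hindstomach controls at a limma adjusted p under 0.05, where 10.7% of all 12694 genes tested were lower. Only Col27a1 was higher, where 9.70% of all genes were. By class, 6 of 8 fibrillar, 3 of 6 basement membrane and 8 of 13 other collagens fell. The median log2 fold change was -2.32 for fibrillar, -1.03 for basement membrane and -1.53 for other collagens, beside 0.14 for all genes tested. In 17 of the 27 the groups did not overlap with the hindstomach lower, against 18.4% of all genes, and in 1 with it higher, against 23.0%.

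The largest of these differences were in the fibre-forming genes and their partners. Col1a2 differed by -3.33 (log2, SE 0.47, limma adjusted p = 0.000354), from a mean of 176 ± 60.5 FPKM in the forestomach (SD, n = 3) to 17.4 ± 9.15 FPKM in the hindstomach (SD, n = 3). Col14a1 differed by -3.32 (SE 0.35, limma adjusted p = 5.1e-05) and Col3a1 by -3.21 (SE 0.60, limma adjusted p = 0.00241). The other fibrillar calls were Col1a1 at -2.69, Col5a2 at -2.62, Col5a1 at -2.02 and Col11a1 at -1.80, with limma adjusted p from 0.00105 to 0.0131. In the basement membrane the specialised pair changed, Col4a6 by -1.54 (limma adjusted p = 0.00335) and Col4a5 with a 95% interval of -1.47 to -0.54 (limma adjusted p = 0.00529), together with Col15a1 at -1.06. The general pair was not called, Col4a1 at -0.46 with a 95% interval of -1.31 to 0.38 and Col4a2 at -0.47 with an interval of -1.83 to 0.88. Of the type VI chains Col6a1 fell by 2.33 and Col6a3 by 2.31, whereas Col6a2, at -1.64, was not called (limma adjusted p = 0.226). Col12a1, Col8a2, Col26a1, Col16a1 and Col19a1 were lower, with fold changes from -0.81 to -2.21. Col27a1 was higher in the hindstomach, with a 95% interval of 0.61 to 1.39 (log2, limma adjusted p = 0.00175), from 8.93 ± 0.615 to 18.9 ± 1.10 FPKM (SD, n = 3 each).

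With the GC slope as a covariate all 18 calls remained and 22 collagens were lower, where 19.8% of all genes were, and 1 higher, where 22.2% were. Added were Col18a1 (-2.27), Col6a2 (-2.32), Col23a1, Col4a2 (-0.94) and Col9a2. Without forestomach control 5, 18 collagens were lower and 1 higher, and without hindstomach control 4, 11 were lower and 1 higher. The share of all genes called without these libraries is not given here. Without the filter on low values 19 were lower, where 8.79% of all genes were, and 1 higher, where 7.49% were.

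Between the hindstomach libraries labelled knockout and their controls, 8 of the 27 collagens were higher in the knockout, where 6.96% of all genes tested were. Only Col27a1 was lower, where 6.28% of all genes were. Col3a1 rose by 2.29 (log2, SE 0.54, limma adjusted p = 0.0196), from 24.6 ± 16.8 (SD, n = 3) to 122 ± 66.9 FPKM (SD, n = 5). The other fibrillar genes that rose were Col5a2 at 2.03 (limma adjusted p = 0.0225), Col11a1 at 1.80 (0.0161) and Col1a2 at 1.74 (0.0214). Of the other class Col12a1 rose by 1.89, Col14a1 by 1.59, Col25a1 by 1.41 and Col19a1 by 0.73, with limma adjusted p from 0.00961 to 0.0497. Col27a1 fell by 0.86 (SE 0.16, limma adjusted p = 0.0068), from 18.9 ± 1.10 (SD, n = 3) to 10.1 ± 2.52 FPKM (SD, n = 5).

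None of the 6 tested basement membrane collagens was called in this comparison by limma, and 0 had an unadjusted p under 0.05. Their fold changes ran from -0.14 for Col18a1 to 0.55 for Col15a1. Col15a1 had means of 0.251 FPKM in the controls and 0.883 FPKM in the libraries labelled knockout, without overlap. At such levels the log2(FPKM + 1) scale understates the change, so its 0.55 is not on a par with values of abundant genes. The 95% interval was -0.48 to 1.03 for Col4a1, -1.22 to 1.20 for Col4a2 and -0.48 to 0.35 for Col4a5, so a change of Col4a5 beyond 0.5 in either direction lies outside it, while the others were measured less closely. Among the fibrillar genes that were not called, Col1a1 stood at 0.40 (-0.47 to 1.27) and Col5a1 at 0.89 (0.04 to 1.74). The type VI chains were not called, with Col6a3 at 1.30, Col6a1 at 0.93 and Col6a2 at -0.03. Medians were 1.31 for fibrillar, 0.13 for basement membrane and 0.93 for other collagens, beside -0.08 for all genes. Rescaling each library to a common sum moved the median of all genes to 0.16, and those of the 3 classes to 1.56, 0.36 and 1.17. With the GC slope as a covariate the class medians were closer, at 1.21, 0.65 and 1.18, beside 0.09 for all genes. Of the 27 fold changes 22 were above 0 as deposited, 26 after rescaling or quantile normalization and 25 with the GC slope. Groups did not overlap for 9 of the 27 with the knockout higher, against 17.7% of all genes, and for 1 with it lower, against 24.9%.

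**Figure D3:**
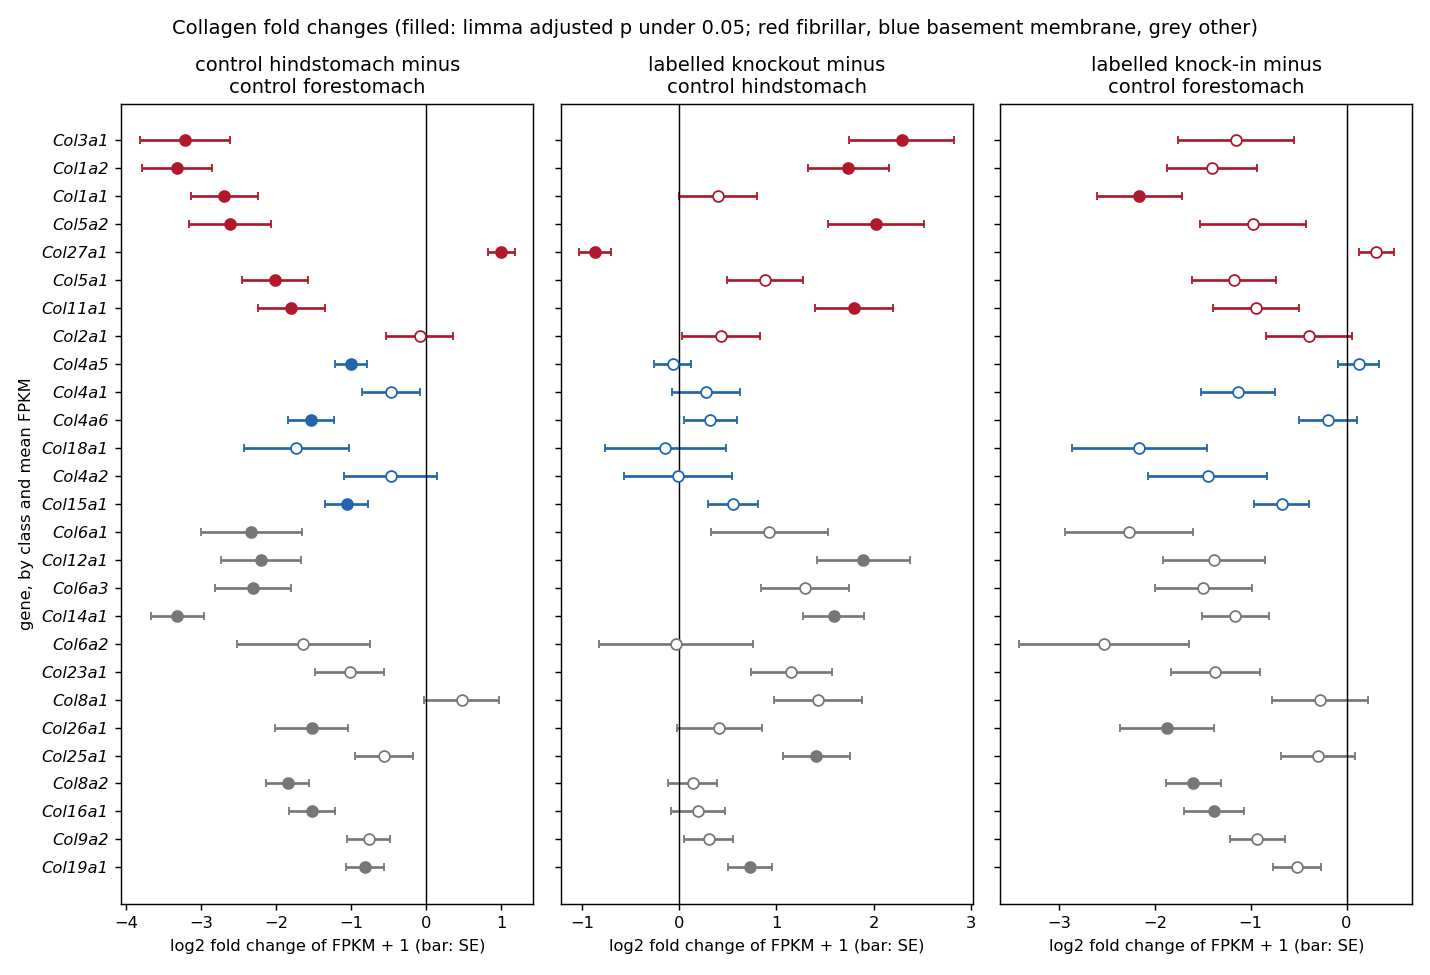
Log2 fold change of FPKM + 1 for the 27 tested collagens in the 3 comparisons, with bars for the limma SE and filled symbols for an adjusted p under 0.05. Each panel has its own horizontal axis. Most points lie below 0 between the control regions and in the knock-in comparison and above 0 in the knockout comparison, and Col27a1 lies on the other side in all 3. The blue basement membrane genes lie between -0.14 and 0.55 in the knockout panel, on a scale that understates changes of low genes such as Col15a1.

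Which collagens were called depended on the GC slope, which differed between the hindstomach groups. With the covariate 10 collagens were higher, where 7.57% of all genes were, and 1 lower, where 4.68% were, but 3 of the 9 calls were shared: Col11a1, Col14a1 and Col27a1. The 6 that were lost kept their direction, with Col3a1 at 1.86 (limma adjusted p = 0.0612), Col12a1 at 1.73 (0.0603), Col5a2 at 1.63 (0.0717) and Col1a2 at 1.48 (0.0603), besides Col25a1 and Col19a1. The 8 gained had transcript GC of 55.1% to 62.7% against 45.9% to 55.7% for the 6 lost, and among them were Col6a1 at 1.83, Col6a2 at 1.68, Col18a1 at 1.22 and Col4a2 at 1.16. By class, 2 of 8 fibrillar, 2 of 6 basement membrane and 6 of 13 other collagens were higher with the covariate. Across the 27 collagens the knockout fold change and transcript GC had a Pearson r of -0.66 and a Spearman rho of -0.64, and -0.20 and -0.20 with the covariate. These genes share the same 8 libraries and are not independent. The part of the slope in the knockout result was not tested beyond this fit.

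**Figure D4:**
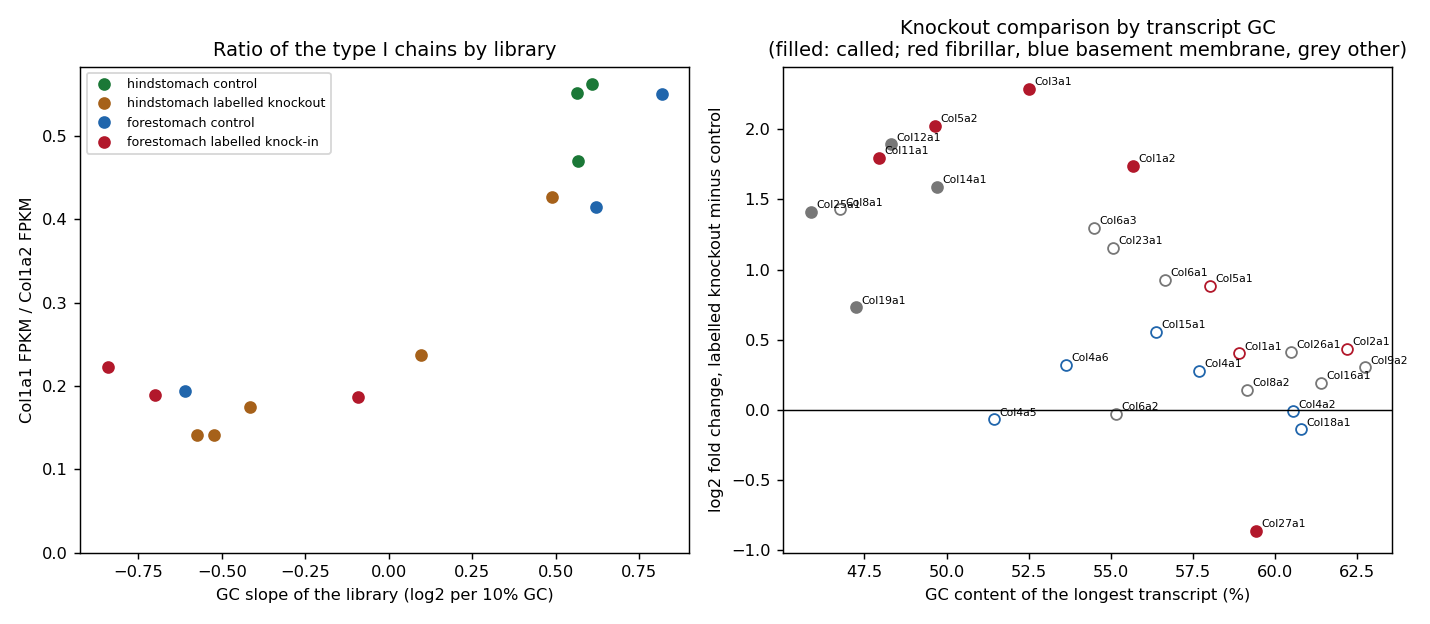
Left, ratio of Col1a1 to Col1a2 FPKM against the GC slope of each of the 14 libraries, coloured by group. Right, log2 fold change of the knockout comparison against transcript GC (%) for the 27 tested collagens (red fibrillar, blue basement membrane, grey other, filled where called), with the called genes other than Col27a1 towards lower GC.

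The number of knockout calls, among collagens and over all genes, also depended on single control libraries. Without hindstomach control 2 or without control 4, 0 collagens were called in either direction by limma. At an unadjusted limma p under 0.05, 10 and 9 were higher, beside 12 with all 14 libraries. The share of all genes called higher was then 0.746% and 0.413%, beside 6.96% with all libraries. The share called lower was 1.21% and 0.945%, beside 6.28%. Without knockout 1, 4 were called higher. Without knockout 5, whose Gata4 was near that of the controls, 10 were higher and 1 lower. For the fits without knockout 1 or 5 the share of all genes called is not given here. Without the filter on low values 7 were higher and 3 lower, where 4.43% and 4.43% of all genes were.

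Between the forestomach libraries labelled knock-in and their controls, 4 collagens were lower, where 3.22% of all genes tested were, and 0 were higher, where 2.62% were. At an unadjusted p under 0.05, 17 were lower and 0 higher. Col1a1 fell by 2.16 (log2, SE 0.45, limma adjusted p = 0.0222), from 63.7 ± 29.8 to 13.0 ± 4.10 FPKM (SD, n = 3 each). Col8a2 fell by 1.60 (SE 0.28, limma adjusted p = 0.0107), Col16a1 by 1.38 (0.0306) and Col26a1 by 1.88 (0.0456). These are not the collagens of highest level other than Col1a1, since Col3a1 stood at -1.15 (-2.46 to 0.16) and Col1a2 at -1.40 (limma adjusted p = 0.079). No basement membrane collagen was called, with 4 of 6 at an unadjusted p under 0.05. Col4a5 stood at 0.13 with an interval of -0.34 to 0.59, and Col18a1 at -2.16 with -3.68 to -0.64. Col27a1, at 0.31, was not called (limma adjusted p = 0.195), although its groups did not overlap.

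Medians in the knock-in comparison were -1.07 for fibrillar, -0.90 for basement membrane and -1.38 for other collagens, beside -0.37 for all genes. Rescaled to a common sum, the median of all genes was -0.04 and those of the classes were -0.66, -0.63 and -1.09. In 14 of 27 the groups did not overlap with the knock-in lower, against 12.2% of all genes, and in 1 with it higher, against 7.78%. The count moved with single libraries: 13 collagens were lower without forestomach control 5, whose GC slope stood with the libraries labelled knock-in, 8 without knock-in 4, 2 without forestomach control 3 or hindstomach control 2, and 1 without knock-in 1. Without forestomach control 2 or knock-in 2 limma called 0, with 14 and 9 lower at an unadjusted p under 0.05. The share of all genes called in these fits is not given here. A move of the collagen count therefore cannot be told from a move over all genes. Of the 27 fold changes 25 were below 0 as deposited, 24 after rescaling, 21 after quantile normalization and 23 with the GC slope. With the GC slope as a covariate 3 were lower, Col8a2, Col11a1 (-1.62) and Col14a1 (-1.57), where 2.96% of all genes were (2.52% were higher), and Col1a1 stood at -1.66 (limma adjusted p = 0.051). Without the filter on low values 6 were lower and 0 higher, where 2.07% and 1.44% of all genes were. The knock-in and regional comparisons share the forestomach controls, and the knockout and regional comparisons share the hindstomach controls, so their values are given side by side without a test of likeness.

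None of the genes that modify and fold collagen chains inside the cell was called as rising without the GC covariate. Of 15 tested genes of chain modification and folding, 0 rose and 2 fell in the knockout comparison, 0 rose and 2 fell in the knock-in comparison, and 0 rose and 0 fell between control regions. Of all genes tested 6.28% fell in the knockout and 3.22% in the knock-in comparison. In the knock-in comparison 12 of the 15 had an unadjusted limma p under 0.05 in either direction, with a median of -1.24. Serpinh1, the chaperone HSP47 for procollagen, was 122, 127 and 115 FPKM in the hindstomach controls and 70.3, 56.9, 68.6, 85.6 and 86.9 FPKM in those labelled knockout. It fell by 0.73 in the knockout comparison (limma adjusted p = 0.0246) and by 1.25 in the knock-in comparison (0.00631). Ppib, the prolyl isomerase cyclophilin B, fell by 1.37 in the knockout comparison, and Lepre1, a prolyl 3-hydroxylase, fell by 1.85 in the knock-in comparison. Between regions P4hb, a subunit of prolyl 4-hydroxylase, stood at 0.74 (limma adjusted p = 0.166) and Ppib at 0.44 (0.526). With the GC slope as a covariate the counts were 4 higher and 0 lower in the knockout comparison, 0 higher and 1 lower in the knock-in comparison and 2 higher and 6 lower between regions. Serpinh1 and Ppib were then not called in the knockout comparison, at -0.54 and -0.48.

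Several genes of extracellular processing were called, in the direction of most fibrillar collagens. Of 9 tested genes of procollagen cleavage and cross-linking 6 were lower in the hindstomach controls and 0 higher. Lox, the lysyl oxidase that cross-links fibrils, was 3.35, 5.36 and 2.01 FPKM in the hindstomach controls and 42.7, 12.5, 31.6, 12.0 and 7.75 FPKM in those labelled knockout, which did not overlap. It differed by -3.38 between regions (limma adjusted p = 0.000763) and rose by 2.09 in the knockout (0.0175). Tll1, a proteinase that removes C-propeptides, rose by 0.83 in the knockout and differed by -0.86 between regions, and Adamts2, which removes N-propeptides, differed by -1.69 between regions. In the knockout comparison 2 of the 9 rose and 0 fell, and in the knock-in comparison 0 rose and 3 fell, Loxl2 by 1.42, Loxl1 by 1.30 and Adamts2 by 1.23. Cleavage and cross-linking counts with the GC slope were 3 higher and 0 lower in the knockout comparison, 0 higher and 1 lower in the knock-in comparison and 0 higher and 9 lower between regions, and Lox in the knockout stood at 1.48 (limma adjusted p = 0.0602).

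Of 5 tested receptors, the pair of discoidin domain receptor kinases differed in pattern. Ddr2, the receptor of mesenchymal cells for fibrillar collagen, rose by 1.86 in the knockout (limma adjusted p = 0.0176) and differed by -2.47 between regions (0.00272). Ddr1, the epithelial one, fell by 1.20 in the knock-in comparison and differed by -1.15 between regions. Itga2, the collagen-binding integrin chain, was higher in the hindstomach controls by 1.34 (0.00093). With the GC slope no receptor was called in the knockout or knock-in comparison by limma, with Ddr2 at 1.42 (adjusted p = 0.055) and Ddr1 at -0.72 (adjusted p = 0.0528), and between regions there were 1 higher and 2 lower. In the knockout, knock-in and regional comparisons the medians were -0.27, -1.24 and -0.29 for chain modification and folding, 0.51, -1.30 and -1.15 for cleavage and cross-linking and 0.56, -0.23 and -0.28 for receptors, beside -0.08, -0.37 and 0.14 for all genes tested.

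Among 9 tested genes of collagen breakdown, the inhibitor Timp3 rose by 1.77 (limma adjusted p = 0.00159) and the membrane-type metalloproteinase Mmp16 by 1.45 in the knockout, while Mmp15 fell by 2.68. In the knock-in comparison Timp2 fell by 1.64 and Mmp14, which cuts fibrillar collagen at the cell surface, by 1.99, and none of the 9 rose. Between regions Timp3, Timp2 and Mmp16 were lower in the hindstomach, at -1.62, -1.39 and -1.57, and none was higher. Breakdown counts with the GC slope were 6 higher and 1 lower in the knockout comparison, 0 higher and 1 lower in the knock-in comparison and 1 higher and 7 lower between regions. Mmp16 in the knockout and Mmp14 in the knock-in comparison were then not called (limma adjusted p = 0.087 and 0.0876), and Mmp15 was higher between regions, at 1.43. The collagenases Mmp8 and Mmp13 were listed at 0 in 9 and 8 of the 14 libraries.

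The other basement membrane proteins did not move in 1 direction. Of 18 tested, 3 were higher and 5 lower in the hindstomach controls, with laminin chains Lama1 at 2.60 (limma adjusted p = 0.000125), Lamc1 at 1.11 and Lamb1 at 0.98 on the higher side. On the lower side were the collagen-binding Sparc at -3.00, the linker Nid2 at -2.55 and Smoc2 at -1.57. In the knockout comparison 3 rose, Nid2 by 1.41, Lama4 by 1.42 and Sparc by 1.44. The 2 that fell were Lama1, by 2.07 (0.00131), and Hspg2, the proteoglycan perlecan, by 1.57 (0.048). Lama1 was 5.95, 7.44 and 7.91 FPKM in the hindstomach controls and 0.510, 0.581, 0.321, 2.20 and 1.60 FPKM in those labelled knockout. In the knock-in comparison only Sparc was called, falling by 1.75. For these proteins the counts with the GC slope were 6 higher and 1 lower in the knockout comparison, 2 higher and 0 lower in the knock-in comparison and 4 higher and 6 lower between regions. Sparc was then not called in the knock-in comparison, at -1.44 (limma adjusted p = 0.0848), nor Hspg2 in the knockout, at -0.50 (0.094). Medians in the same order of comparisons were 0.07, -0.84 and 0.08 for these proteins and 0.20, -1.61 and -1.29 for the genes of breakdown.

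Markers of mesenchyme were called in the same direction as most fibrillar collagens in each of the 3 comparisons. Of 18 tested mesenchyme markers 11 rose and 0 fell in the knockout comparison, 0 rose and 2 fell in the knock-in comparison, and 14 were lower and 0 higher in the hindstomach controls. Their median log2 fold changes were 1.45, -1.30 and -2.26 in the knockout, knock-in and regional comparisons. The sum of the 21 markers in the table was 61.7 to 165 FPKM in the hindstomach controls, 232 to 562 in the libraries labelled knockout, 557 to 856 in the forestomach controls and 153 to 382 in those labelled knock-in. Nkx3-2 was listed at 0 in 11 libraries, Thy1 in 3 and Mfap5 in 1, and the remaining 18 were above 0 in every library. The fibroblast proteoglycan Dcn rose by 2.52, Ogn by 2.58 and Postn by 2.16 in the knockout, and Tcf21 and Vim fell by 2.24 and 1.68 in the knock-in comparison. Mesenchyme counts with the GC slope were 9 higher and 0 lower in the knockout comparison, 0 higher and 1 lower in the knock-in comparison and 0 higher and 17 lower between regions. Between regions Twist1 stood at -3.08, Dcn at -3.66 and Postn at -3.32. Summed fibrillar collagen was 0.523 to 0.854 of the mesenchyme sum over the 14 libraries, a narrower spread than that of the fibrillar sum itself (50.2 to 674 FPKM). The ratio for basement membrane collagens was 0.167 to 0.314 in the hindstomach controls and 0.0484 to 0.120 in those labelled knockout, without overlap. In the forestomach it was 0.0845 ± 0.0460 in the controls and 0.135 ± 0.0301 in those labelled knock-in (SD, n = 3 each), and these groups overlapped. The part of mesenchymal cells in the collagen results was not tested.

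**Figure D5:**
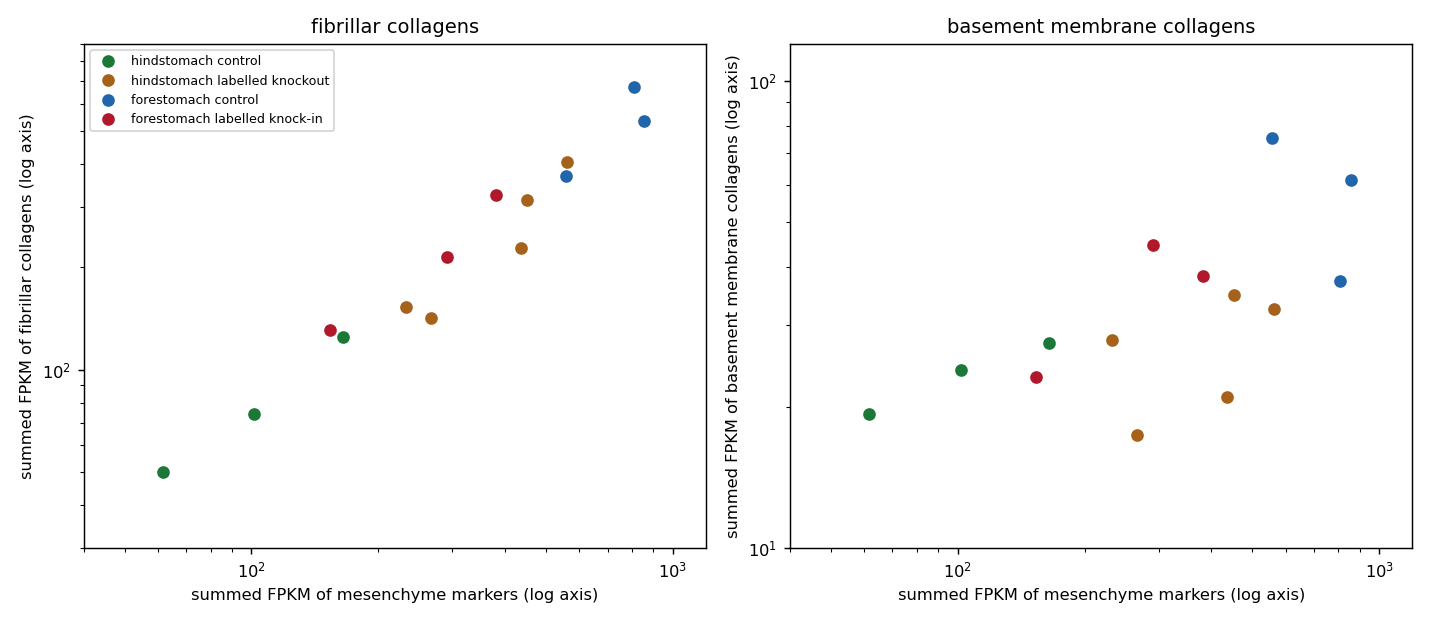
Summed FPKM of fibrillar (left) and basement membrane collagens (right) against the summed FPKM of 21 mesenchyme markers, on log axes, with 1 point per library coloured by group. Fibrillar sums rise with the marker sum along 1 band, from 50.2 to 674 FPKM, while the hindstomach basement membrane sums stay between 17.4 and 34.9 FPKM across a wide range of the marker sum.

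Markers of other cell types were read for the same libraries, and their part in the collagen results was not tested. Of 11 smooth muscle markers 2 rose in the knockout (Mylk 1.69, Synpo2 1.57), 0 were called in the knock-in comparison by limma (Acta2 -3.48, adjusted p = 0.0523, and Actg2 -3.20, adjusted p = 0.0535) and 6 were lower in the hindstomach controls, led by Mylk (-3.45), Synpo2 and Myocd. Their sum was 38.5 to 113 FPKM in the hindstomach controls, 78.9 to 221 in the libraries labelled knockout, 164 to 1286 in the forestomach controls and 25.5 to 161 in those labelled knock-in. Of 8 mesothelium markers 5 rose (Upk1b 1.43, Wt1, Aldh1a2) and Msln fell in the knockout, 4 fell in the knock-in comparison (Upk1b -2.20, Aldh1a2, Lrrn4), and 7 were lower (Wt1 -3.73, Lrrn4, Upk1b) and Msln higher in the hindstomach controls. Their sum was 34.7 to 42.8 FPKM in the hindstomach controls, 34.6 to 64.2 in the libraries labelled knockout, 133 to 177 in the forestomach controls and 40.9 to 61.1 in those labelled knock-in. Neither list had a gene at 0 in any library.

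Endothelium and leukocyte markers were low, with sums up to 49.0 and 79.9 FPKM. Endothelial sums reached 19.4 FPKM in the hindstomach controls, and were 8.15 to 47.3 in the libraries labelled knockout, 19.6 to 49.0 in the forestomach controls and 4.61 to 13.3 in those labelled knock-in. Leukocyte sums were 11.5 to 22.1 FPKM in the hindstomach controls, 9.19 to 34.9 in the libraries labelled knockout, 27.8 to 79.9 in the forestomach controls and 8.26 to 17.6 in those labelled knock-in. Tie1 was listed at 0 in 2 libraries, and C1qa and C1qb in 1 each. In the knockout comparison limma called 0 of 7 endothelial markers (Emcn 1.44, Egfl7 -1.87) and 0 of 10 leukocyte markers (Cx3cr1 1.09, Fcer1g 1.05). In the knock-in comparison it called 0 endothelial markers (Emcn -1.19, Egfl7 -1.37) and 1 leukocyte marker, Aif1, which fell. Between regions 1 endothelial marker (Emcn -2.11) and 3 leukocyte markers (Aif1, Fcer1g, Cx3cr1) were lower in the hindstomach.

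Of 9 enteric neural crest markers 2 rose in the knockout (Elavl4 1.68, Ednrb 2.33), 0 were called in the knock-in comparison (Ednrb -0.46, Erbb3 -0.49) and 1 was higher in the hindstomach controls (Erbb3 2.32). Their sum was 34.9 to 67.6 FPKM in the hindstomach controls, 61.4 to 127 in the libraries labelled knockout, 43.4 to 48.9 in the forestomach controls and 22.3 to 44.5 in those labelled knock-in, with Sox10 at 0 in 1 library. Cartilage markers were nearly absent, although several collagens named here are best known from cartilage. Matn1 was listed at 0 in 13 libraries, Comp in 7, Lect1 in 6 and Acan in 5, the sum of the 6 genes did not exceed 4.01 FPKM, and the 1 tested, Hapln1, was called in no comparison (0.06, -0.26 and 0.50 in the knockout, knock-in and regional order). All 14 epithelium markers were tested, and Cldn3 alone was listed at 0, in 3 libraries. Their sum was 1688 to 2059 FPKM in the hindstomach controls, 520.3 to 1322 in the libraries labelled knockout, 457 to 1273 in the forestomach controls and 558 to 1064 in those labelled knock-in. In the knockout 3 epithelium markers fell (Spint2 -2.56, Cldn3 -1.61, Elf3 -2.99), in the knock-in comparison Epcam rose by 1.11, and in the hindstomach controls Epcam (1.06) and Cldn7 (1.72) were higher. Median log2 fold changes of the 14 epithelium markers were -1.75, -1.08 and 1.17 in the knockout, knock-in and regional order. For all genes tested they were -0.08, -0.37 and 0.14. Epcam thus rose in the knock-in comparison against the median of its list. Epithelium counts with the GC slope were 0 higher and 3 lower in the knockout comparison, 1 higher and 0 lower in the knock-in comparison and 10 higher and 0 lower between regions. Of the other lists, 0 higher and 11 lower were called between regions for smooth muscle, 1 higher and 5 lower for endothelium, 0 higher and 8 lower for leukocytes, 1 higher and 7 lower for mesothelium and 1 higher and 1 lower for enteric neural crest. In the knockout comparison the same lists had 3 higher and 0 lower, 0 higher and 0 lower, 1 higher and 0 lower, 4 higher and 1 lower and 2 higher and 0 lower, and in the knock-in comparison 0 higher and 0 lower, 0 higher and 0 lower, 0 higher and 1 lower, 0 higher and 3 lower and 0 higher and 0 lower. Without the GC slope, where limma called 0 genes of a list, the number at an unadjusted p under 0.05 was 2 of 15 for chain folding between regions, 10 of 11 for smooth muscle and 2 of 9 for enteric neural crest in the knock-in comparison. It was 4 and 2 of 7 for endothelium in the knockout and knock-in comparisons, 3 of 10 for leukocytes in the knockout, and 0, 0 and 0 of 1 for cartilage.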

How the data were processed

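Epithelial cells of the embryonic mouse stomach were sequenced by the authors as RNA, with directional NEBNext Ultra II libraries per the labels' protocols. The authors deposited FPKM values, 1 column per library. The submitters' processing notes name the build mm9; the aligner, the FPKM program, the annotation and the handling of paralogs: not given in the sources used here. Of 22906 rows 108 exact duplicates were dropped. Absolute depth is unknown, and relative depth was read from the ratios of low values (below 0.1 FPKM).

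Genes with at least 1 FPKM in at least 3 libraries were fitted as log2(FPKM + 1), a scale that understates changes of low genes, with limma 3.58.1 in R 4.3.3 (eBayes with trend and robust, statmod 1.5.0) and 1 mean per group over all 14 libraries. Benjamini-Hochberg adjustment covered all 12694 genes tested, called under 0.05. The fit was tested on simulated data. Labels do not say that samples came from separate animals, so the spread behind each p-value is that between these samples and may be technical. GC content came from GRCm38 transcripts matched by symbol or synonym (99.3% of genes tested). Values in every library are given for the collagens of highest mean in each class and for every other called one, and up to 3 called genes per companion list, comparison and direction, or else the 2 of highest mean, are named. The collagens and the 13 lists of partner and marker genes were chosen with earlier results of these data known, and 1 marker gene is not reported here. Alternatives were another pseudocount, other filters, rescaling, quantile normalization, the compared groups alone, plain eBayes, a GC slope covariate, a replicate block and leaving out each library.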

Additional observations from a re-analysis of the deposited data

Results flagged for a closer look

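Both collagens flagged stood out by 1 library far from the others of its group, judged in the group of 5 labelled knockout, the other groups being too small. Col20a1, a fibril-associated collagen, was 0.374 FPKM in knockout 5 and at most 0.121 FPKM in the other 4, and the hindstomach controls were 0.384, 0.670 and 0.542 FPKM. Col6a4, a type VI chain, was 0.850 FPKM in knockout 4 and at most 0.359 FPKM in the other 4, with hindstomach controls at 0.102, 0.334 and 0.0404 FPKM. Neither reached 1 FPKM or was tested. Chance flags about 1 in 20 groups, and 43 collagens were examined.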

How the results depend on the processing

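The regional result was the steadiest, with 11 to 18 collagens lower and 1 to 1 higher over the 14 fits that each left out 1 library, and 12 to 23 lower and 1 higher under the pseudocount, filter-free, scaling, compared-groups, block and GC alternatives (with a minimum of 5 FPKM, 12 of 18 tested). In the knockout comparison 0 to 11 were higher and 0 to 1 lower when 1 library was left out. Among the fits that left out 1 library, the share of all genes called is given only for the knockout comparison without hindstomach control 2 or 4. It is also not given for the pseudocount, scaling, compared-groups, replicate block or 5 FPKM fits. Changes of the collagen count in these fits cannot be told from changes over all genes. Without a filter on low values 7 were higher and 3 lower, the added ones being Col11a2 and Col20a1. With a minimum of 5 FPKM, with quantile normalization and with the compared groups alone the knock-in comparison gave 1, 2 and 0 lower (the last with 16 at an unadjusted p under 0.05), and 0 to 13 when 1 library was left out; the cause was not tested. With the GC slope covariate, and with it and a replicate block, 3 knockout fold changes turned from below to above 0: Col18a1 (1.22 and 1.29), Col4a2 (1.16 and 1.19) and Col6a2 (1.68 and 1.76). Same-numbered libraries did not deviate together in all pairs (correlations of 0.03, 0.06 and -0.25 for numbers 2, 3 and 4 in the hindstomach, and 0.28 and -0.14 for 2 and 3 between control regions). With so few libraries per group, whose GC slopes also differed, these values cannot exclude a shared litter or batch. Whether such libraries share more than a number is unknown. The replicate block gave 0 collagens higher in the knockout (11 at an unadjusted p under 0.05) and 1 lower, 5 and 1 with the GC slope too, and 12 lower and 1 higher between regions. No paired analysis was possible for the knock-in comparison because its groups share only number 2. Unknown absolute depth limits the precision of the 16 collagens that were not tested.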
